A study of Mus musculus with 12 samples.

Results

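The complement genes described here are 9 members, C3, C4b, C2, Cfb, C1ra, C1s1, Serping1, Cd55 and Cfp, taken by gene name from the deposited tables, which held 24396 genes in the lung setting and 22035 in the culture setting. All 9 had a row in the lung table and 8 had one in the culture table, where Cd55 was not among the rows used here. RNA was sequenced from 12 libraries of 4T1, an established mouse mammary carcinoma line. In vivo young and in vivo old are 3 libraries each of mNeonGreen-carrying 4T1 cells, 100000 per sample, sorted from the lungs of young or old Balb/c mice 4 weeks after 5000 cells were given by tail vein. In vitro young IFE and in vitro old IFE are 3 libraries each of cultured 4T1 cells kept for 72 h in RPMI without serum to which 25% lung interstitial fluid extract (IFE) was added, taken from young or old mice that bore 4T1 metastases. The 4 groups are labelled as the same line, but the lung libraries also held reads of macrophage and alveolar marker genes, given below. Values given for young or old lungs are RNA levels in these sorted samples, not in whole lung. The ages in weeks and the number of mice behind each sorted sample or extract are not stated in the labels. The cultured libraries are also titled shNT, a term left unexplained in the labels.

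Complement is a cascade of plasma proteins that tags cells and microbes for uptake and can open pores in membranes. In the classical route C1q recognises a surface, the proteases C1r and C1s cut C4 and C2, and the products form an enzyme that cuts C3. In the alternative route factor B joins C3b to form such an enzyme, properdin stabilises it, and host regulators such as C1 inhibitor and CD55 limit activation. The liver makes most plasma complement, while macrophages, fibroblasts and epithelial cells make components locally, lung epithelium among them.

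In the cells sorted from lungs, 6 of the 7 members tested were lower in old than in young mice: C3, C4b, Cfb, C1ra, C1s1 and Cfp. Their levels in young libraries were from 1.497 times (C1s1) to 5.36 times (Cfp) those in old ones. Over all 14096 genes tested there, 20.4% were lower in old and 40.0% called in either direction. Cfb passed edgeR's filter on low counts through the young libraries alone. Serping1 showed no change past the test, and C2 and Cd55 had too few reads to be tested. In IFE culture 0 of the 4 members tested were called between old and young extract, beside 0.0839% of all 13118 genes tested. A call means an adjusted p under 0.05 by edgeR's quasi-likelihood test, adjusted over all genes of that setting.

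Promoter sequences are printed for the 4 called members that had an entry in the RefSeq promoter table of GRCm38.p6, which held 5 of the 9 members. Each window runs 5′ to 3′ from 250 bases before to 50 bases after an annotated transcript start. Capitals mark every match, on either strand, to 6 motifs: TTCNNNGAA (bound by STAT proteins), the interferon response core (GAAA, 2 free bases, GAAA), the NF-kB motif (GGG, 2 free bases, TTTCC), TTGCNNAA (bound by C/EBP factors), GAGGAA (bound by the myeloid factor PU.1) and TATAAA (the TATA box). No matches of different motifs overlap in the windows shown. Window positions are on GRCm38.p6 and cannot be set against the gene positions given below, whose build the labels do not name.
C3, chr17:57228087-57228386, minus strand: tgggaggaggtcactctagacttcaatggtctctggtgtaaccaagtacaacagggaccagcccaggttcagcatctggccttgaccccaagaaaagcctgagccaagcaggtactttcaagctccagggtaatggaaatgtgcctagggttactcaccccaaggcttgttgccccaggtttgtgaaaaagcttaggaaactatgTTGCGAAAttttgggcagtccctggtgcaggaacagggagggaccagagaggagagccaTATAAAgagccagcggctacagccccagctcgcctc
C1ra, chr6:124512371-124512670, plus strand: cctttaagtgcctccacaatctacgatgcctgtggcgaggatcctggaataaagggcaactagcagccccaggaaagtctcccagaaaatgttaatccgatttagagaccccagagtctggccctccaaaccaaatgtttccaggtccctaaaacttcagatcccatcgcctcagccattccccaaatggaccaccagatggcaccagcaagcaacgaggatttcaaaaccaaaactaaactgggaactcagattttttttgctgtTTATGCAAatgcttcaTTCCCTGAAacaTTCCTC
C1s1, chr6:124542310-124542609, minus strand: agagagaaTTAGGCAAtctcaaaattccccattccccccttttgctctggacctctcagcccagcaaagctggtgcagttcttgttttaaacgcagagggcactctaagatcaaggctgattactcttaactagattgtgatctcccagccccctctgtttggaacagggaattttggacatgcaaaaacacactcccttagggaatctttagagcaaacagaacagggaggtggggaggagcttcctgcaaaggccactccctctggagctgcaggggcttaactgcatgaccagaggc
Cfp, chrX:20931506-20931805, minus strand: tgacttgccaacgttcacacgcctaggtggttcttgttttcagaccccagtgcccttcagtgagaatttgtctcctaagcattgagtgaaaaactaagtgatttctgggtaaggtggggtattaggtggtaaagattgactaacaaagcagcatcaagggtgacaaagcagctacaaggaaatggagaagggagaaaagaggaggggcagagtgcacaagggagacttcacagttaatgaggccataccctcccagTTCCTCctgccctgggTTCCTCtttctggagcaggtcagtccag
The C3 window holds a C/EBP match 45 bases before the annotated start and a match to the letters TATAAA 15 bases after it. The C1ra window holds a C/EBP, a STAT and a PU.1 match at 17, 33 and 45 bases after the start. The C1s1 window holds a C/EBP match 242 bases before the start, and a second C1s1 start in the table has none of the 6 motifs. The Cfp window holds PU.1 matches at 7 and 23 bases after the start. The Cd55 window holds none of the 6. Of 32851 promoters in the table, 10.8% hold the C/EBP letters, 8.3% the STAT, 28.3% the PU.1, 13.6% the TATA, 3.44% the interferon and 1.63% the NF-kB letters. A match is a description of the window, not a binding site.

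Depth lay between 11679046 and 15053144 counts per lung library and between 12299004 and 18129164 per cultured library. Replicates differed by more than counting noise, with a mean chi-square per gene of 2.17 to 2.47 in vivo. In vitro it was 2.97 to 3.43 except for the pairs that include old IFE replicate 3, which gave 9.43 and 8.18, so this library stands apart. P-values measure the spread between these samples, which may be technical. The carcinoma genes Epcam and Krt8 were present in every library. In the lung 9 of 10 carcinoma markers were higher in old and 1 lower, with sums of 3426 to 3578 CPM (counts scaled to a common library total with edgeR's TMM factors) in young and 4577 to 4666 CPM in old libraries. Epcam alone went from 154 ± 6.02 to 263 ± 7.24 CPM (SD, n = 3 each). Among markers of non-tumour cells, those of macrophages and monocytes fell in 18 of 18 cases tested, and the 20 listed summed to 1201 to 1247 CPM in young and 197 to 207 CPM in old libraries. Marco and Ly6c2 of that list had too few reads to be tested. Marco went the other way, with 2 reads in young and 22 in old libraries, and Ly6c2 had 23 and 14. Of 13 alveolar and airway markers, 8 of 12 tested rose, with sums of 34.9 to 37.4 CPM in young and 96.9 to 109 CPM in old libraries. Of 12 fibroblast and pericyte markers, 6 of 9 tested rose and 3 fell, with sums of 341 to 366 and 433 to 443 CPM. Of 8 neutrophil markers tested 2 fell and 6 were not called, with sums of 62.4 to 71.0 against 59.0 to 61.6 CPM. Of 9 endothelial markers tested 2 rose, 1 fell and 6 were not called, with sums of 30.8 to 34.8 against 36.3 to 40.3 CPM. Beside these marker counts, 20.4% of all genes tested in the lung were lower, 19.6% higher and 40.0% called in either direction. Of the 2 lymphoid markers tested 1 fell, with sums of 5.03 to 6.87 and 2.76 to 3.42 CPM. That marker, Jchain, passed edgeR's filter on low counts through the young libraries alone. So did Ms4a7 of the macrophage list and Lamp3 of the alveolar list, the latter not called. Lyz1 and Cspg4, counted above among the alveolar and fibroblast markers that rose, passed through the old libraries alone. In culture the macrophage sum was 8.42 to 11.95 CPM, most of it Cd14 (3.56 to 6.09 CPM) and Cd68 (2.95 to 4.89 CPM). There 10 of the 20 markers, Adgre1 among them, had no row, and Csf1r had 5 reads with young and 23 with old IFE. In such bulk libraries, fewer cells of a type and less RNA per cell cannot be told apart, and the part of these shifts, tumour and non-tumour, in the results was not tested.

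C3, the protein on which all routes converge, was the most abundant member in each group on the length-scaled FPKM of the authors. C3 (ENSMUSG00000024164, chromosome 17, 57510970 to 57535136 as the file places it, on a build that the labels do not name) stood at 332, 342 and 331 CPM in the young and at 172, 172 and 173 CPM in the old lung libraries. The groups did not overlap, and the old libraries lay close to each other. The log2 fold change was -0.96 ± 0.03 (SE), with an adjusted p of 1.19e-48 (edgeR). In culture C3 stood at 68.1, 66.7 and 59.7 CPM with young IFE and at 54.8, 54.3 and 87.0 CPM with old IFE. Here the groups overlapped through old IFE replicate 3 alone, the library that stands apart. The log2 fold change was 0.01 ± 0.23 (SE; adjusted p = 0.996, edgeR). Without old IFE replicate 3 it was -0.25 ± 0.07 (adjusted p = 0.0577, edgeR), and over all alternatives the adjusted p ran from 0.0577 to 0.999.

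C4b (ENSMUSG00000073418, chromosome 17, 34947354 to 34962856) encodes C4, which C1s cuts in the classical route and whose fragment holds C2. It stood at 193, 207 and 192 CPM in the young and at 58.6, 48.3 and 53.5 CPM in the old lung libraries. The groups lay far apart, at a log2 fold change of -1.89 ± 0.05 (SE; adjusted p = 2.95e-46, edgeR). In culture C4b was nearly without reads: 0 of 43968606 counts in the 3 young IFE libraries, which allows a level of up to 0.0682 CPM, and 1, 2 and 2 reads in the old IFE libraries. Such intervals cover counting error only. C4a, a near copy of C4b annotated as a long noncoding RNA in the file, held 302 reads in young and 133 in old lung libraries, against 8494 and 2031 for C4b. The labels do not say how reads shared by the copies were counted, so the split between them is uncertain.

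RNA of the initiating proteases C1r and C1s was lower in the cells sorted from old lungs as well. C1ra (ENSMUSG00000055172, chromosome 6, 124489364 to 124500402), which activates C1s, stood at 23.3, 24.9 and 23.7 CPM in young and at 12.8, 9.18 and 11.8 CPM in old lungs. C1s1 (ENSMUSG00000038521, chromosome 6, 124507304 to 124519318), which cuts C4 and C2, stood at 11.4, 9.25 and 11.7 CPM in young and at 6.55, 6.47 and 8.63 CPM in old lungs. Old libraries lay below young ones for both genes. The log2 fold changes were -1.10 ± 0.11 for C1ra (adjusted p = 1.46e-14, edgeR) and -0.58 ± 0.15 for C1s1 (SE; adjusted p = 0.000901, edgeR). In culture C1ra had 4 to 23 reads and C1s1 5 to 18 reads per library. C1ra was below edgeR's filter on low counts, which asks for a level in several libraries. Its sums of 34 reads with young and 34 with old IFE were above the 28 and 32 of C1s1, which passed. The cultured C1s1 level of 0.622 ± 0.194 CPM with young and 0.649 ± 0.299 CPM with old IFE (SD, n = 3 each) did not pass the test (log2 fold change 0.07 ± 0.51 SE, adjusted p = 0.99, edgeR). The near copies C1rb and C1s2, which passed the filter on low counts through the young libraries alone, held 49 and 35 reads in young against 15 and 16 in old lung libraries. The C1rb difference was called (log2 fold change -1.52 ± 0.53, adjusted p = 0.0159, edgeR), a call lost with DESeq2 (adjusted p = 0.0535), without young replicate 2 (0.121) and without old replicate 3 (0.108). Its adjusted p lay between 0.0157 and 0.121 over the alternatives.

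C2 (ENSMUSG00000024371, chromosome 17, 35081580 to 35117241), the protease partner of C4, was barely detected, with 8, 8 and 12 reads in the young and 1, 8 and 4 in the old lung libraries. It was tested only in culture, where it held 14, 8 and 16 reads with young and 13, 18 and 17 with old IFE (log2 fold change 0.26 ± 0.43 SE, adjusted p = 0.935, edgeR). The cultured groups overlapped. C2 overlaps Zbtb12 on the opposite strand in the file's coordinates, and the labels do not say whether the counting used strand. Zbtb12 held 543 and 516 reads in young and old lung libraries and 1113 and 1322 in culture, so reads of the partners cannot be told apart.

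The members of the alternative route, Cfp and Cfb, also fell. Cfp (ENSMUSG00000001128, chromosome X, 20791693 to 20797794) encodes properdin, the positive regulator of that route, which myeloid cells store and secrete. It stood at 36.2, 33.1 and 31.4 CPM in young and at 6.55, 4.38 and 8.06 CPM in old lungs, a log2 fold change of -2.42 ± 0.12 (SE; adjusted p = 3.04e-27, edgeR). In culture Cfp stood at 2.87, 2.20 and 3.26 CPM with young and at 1.93, 3.62 and 2.18 CPM with old IFE. The cultured groups overlapped, and the log2 fold change was -0.14 ± 0.30 (SE; adjusted p = 0.954, edgeR). Cfb (ENSMUSG00000090231, chromosome 17, 35075350 to 35081494), the protease of the alternative route, was low, at 3.55, 2.45 and 1.72 CPM in young and 0.345, 0.765 and 0.814 CPM in old lungs. Old libraries again lay below young ones, and the log2 fold change of -1.96 ± 0.40 (SE; adjusted p = 2.56e-05, edgeR) rests on 109 and 25 reads in all. Cfb passed the filter on low counts through the young libraries alone, since 2 of the 3 old ones reached its level of 0.722 CPM. With limma on log2(FPKM + 1), a scale that understates changes of low genes, it was -0.58. In culture Cfb had 2 reads with young and 5 with old IFE.

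Of the regulators, Serping1 was not called and Cd55 could not be tested. Serping1 (ENSMUSG00000023224, chromosome 2, 84595731 to 84605788) encodes C1 inhibitor, which inactivates C1r and C1s. It stood at 4.60, 3.54 and 2.25 CPM in young and 3.19, 3.13 and 4.40 CPM in old lungs. These groups overlapped, with a log2 fold change of 0.05 ± 0.25 (SE; adjusted p = 0.893, edgeR). Serping1 had 2 reads with young and 5 with old IFE in culture. Cd55 (ENSMUSG00000026399, chromosome 1, 130366764 to 130390481), a membrane protein that speeds the decay of C3-cutting enzymes, had 7, 4 and 10 reads in young and 0, 3 and 1 in old lung libraries. The Cd55 groups did not overlap, but the gene was below edgeR's filter on low counts.

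**Figure D1:**
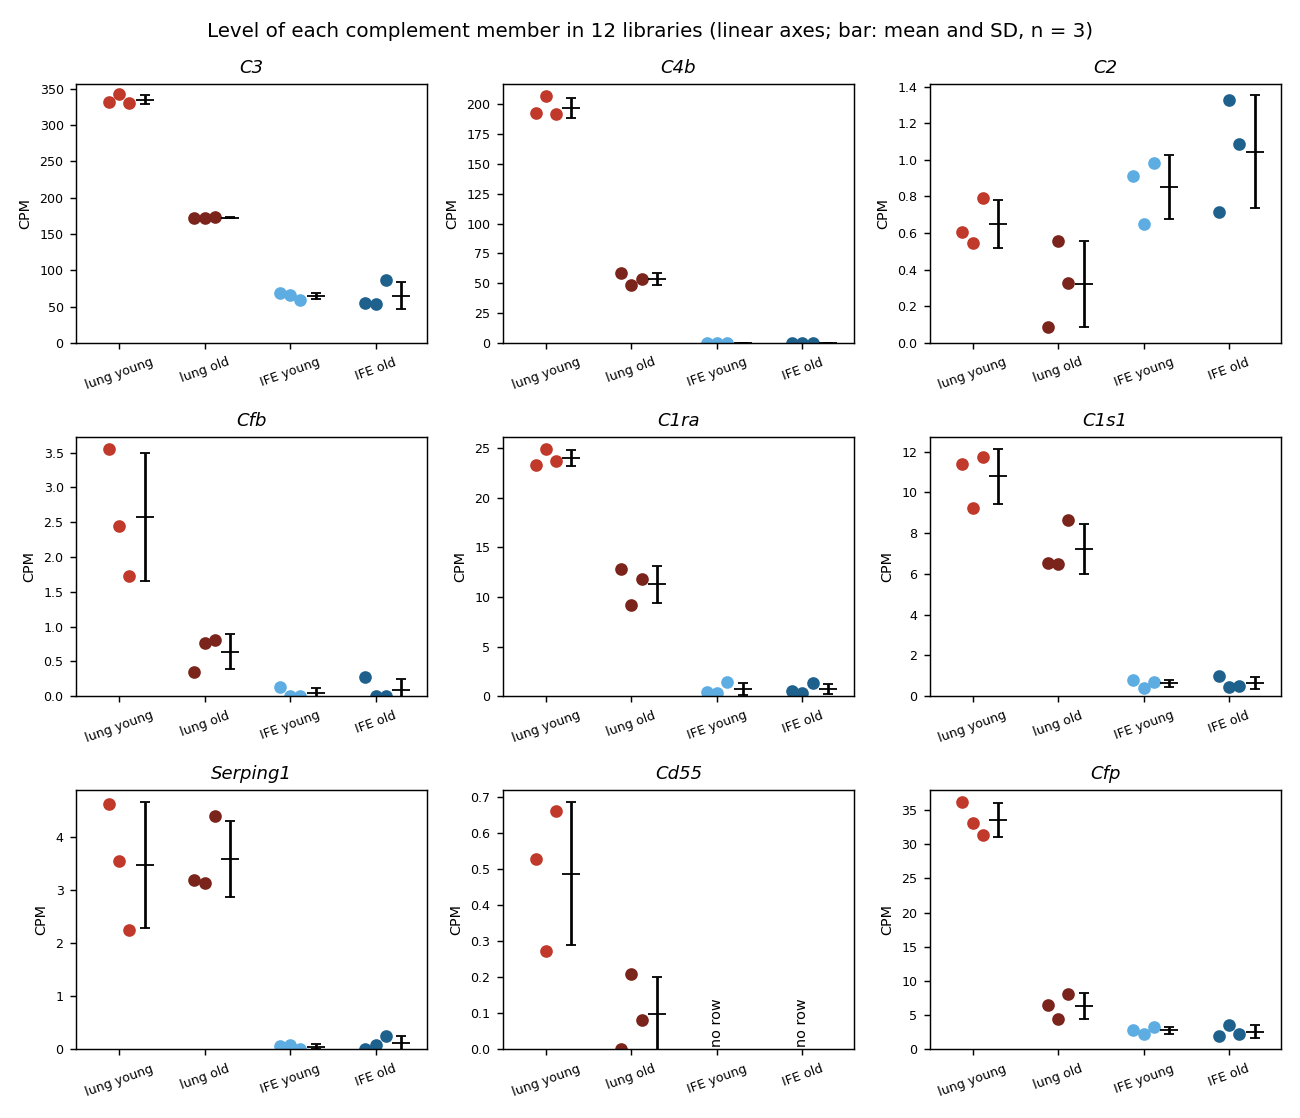
Level of each member in CPM (linear axes from 0, each with its own scale) in the 12 libraries, as points by group, with mean and SD of 3 libraries as bars. C3, C4b, Cfb, C1ra, C1s1, Cfp and the little-read Cd55 separate the young from the old lung libraries, while old IFE replicate 3 is the high C3 point in culture at 87.0 CPM.

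Counted together, 6 of the 7 members tested in the lung were lower in old and 0 higher, where 20.4% of all 14096 genes tested were lower 19.6% higher and 40.0% called in either direction. The same 6 had an unadjusted p under 0.05, beside 46.7% of all genes. Of those 7, 6 had old libraries that all lay below the young ones, against 24.2% of all genes, and 47.7% of all genes had groups apart in either direction. The median log2 fold change of the 7 was -1.10, beside 0.00 over all genes. These counts describe the 7 that passed a filter on low counts, which C2 and Cd55 did not pass. Without Cfb, which passed through the young libraries alone, 5 of the other 6 were lower. In culture 0 of 4 members were called by edgeR and 0 by DESeq2, with 0 at an unadjusted p under 0.05, where 0.0839% of 13118 genes were called, 0.0534% higher and 0.0305% lower, and 7.08% had an unadjusted p under 0.05. The cultured groups overlapped for each of these 4 members, while 13.1% of all genes had groups apart, 6.21% higher and 6.92% lower with old IFE. The macrophage sum in the same lung libraries fell to 197 to 207 CPM from 1201 to 1247 CPM, as above.

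**Figure D2:**
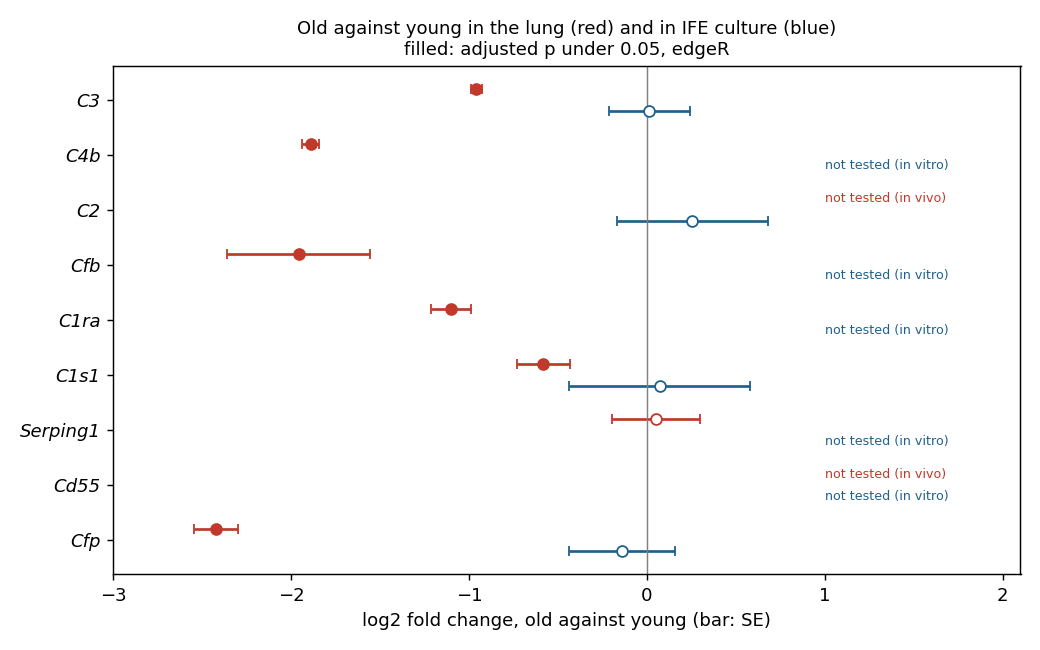
Log2 fold change of old against young for each member (x axis) in the lung (red) and in IFE culture (blue), with SE as bars and filled points for an adjusted p under 0.05. The red points of 6 members lie between -2.42 and -0.58, and the blue points lie between -0.14 and 0.26, with wider bars than the red ones of the same gene where both were tested.

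The difference between the settings was tested as an interaction over 12 libraries, where 17.5% of 14318 genes were called 8.37% more negative and 9.10% more positive in vivo, and 29.9% had an unadjusted p under 0.05. Of the 8 members in that fit, 3 were called, all more negative in vivo. C4b is among these 3, on 0 reads with young and 5 with old IFE in culture. C4b, Cfb, Serping1 and C1ra were below the culture filter on low counts and entered this fit through the lung libraries. Cfp differed by -2.26 ± 0.31 on the log2 scale (adjusted p = 5.11e-06, edgeR), with a highest adjusted p of 0.000149 over its alternatives. C3 differed by -0.98 ± 0.22 (SE; adjusted p = 0.0184, edgeR), which missed the threshold without young IFE replicate 3 (adjusted p = 0.0508), in a range up to 0.0863 over its alternatives. C4b was also called (adjusted p = 0.00264, edgeR), but its fitted difference depends on the 5 reads of the culture libraries and is no measure of size. C1ra differed by -0.998 ± 0.56 (adjusted p = 0.249, edgeR) and was called without young IFE replicate 3 (-1.94, adjusted p = 0.0149). The C1ra values lay between 0.0149 and 0.773 over its alternatives. For C1s1 (-0.66 ± 0.46), C2 (-1.19 ± 0.76), Cfb (-3.02 ± 1.46) and Serping1 (-1.03 ± 1.22) the difference did not pass the test, with adjusted p of 0.354, 0.306, 0.158 and 0.625 (edgeR) and few reads in culture.

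Between genes, levels were compared per length with the authors' FPKM, within a group. In young lungs the order was C3 at 58.4 ± 1.01, C4b at 31.0 ± 1.29, Cfp at 17.3 ± 1.29, C1ra at 7.21 ± 0.232, C1s1 at 3.09 ± 0.388 and Serping1 at 1.34 ± 0.456 FPKM (SD, n = 3 each). Cfb at 0.816, C2 at 0.15 and Cd55 at 0.0901 FPKM followed. Each library range was separate from that of the next gene except for Serping1 and Cfb. In old lungs C3 at 29.9 ± 0.0954 and C4b at 8.38 ± 0.827 FPKM still led, but Cfp at 3.26 ± 0.95 FPKM overlapped its neighbours C1ra (3.38 ± 0.57 FPKM) and C1s1 (2.06 ± 0.347 FPKM). C3 made up 48.9% ± 0.759 of the summed FPKM of the members in young and 61.6% ± 3.05 in old lungs. C4b went from 26.0% ± 0.767 to 17.2% ± 1.18, and Cfp from 14.5% ± 0.899 to 6.64% ± 1.65 of that sum (SD, n = 3 each).

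In culture C3 was 84.5% ± 3.95 of the summed FPKM with young and 84.2% ± 4.39 with old IFE, at 12.6 ± 0.839 and 12.7 ± 3.66 FPKM. Cfp came next at 1.59 ± 0.31 and 1.47 ± 0.516 FPKM, separate from all others in both groups. C1ra, C2 and C1s1 overlapped one another between 0.0982 and 0.474 FPKM. The tables of the settings were made separately, and the settings also differ in sorting and in the cells used, so levels across them are set side by side without a test. Each C3 library from the lung lay above each culture library, C4b averaged 197 and 53.5 CPM in the lung groups and was near 0 in culture, and C2 had higher mean CPM in culture (0.85 and 1.04) than in the lung (0.648 and 0.323).

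**Figure D3:**
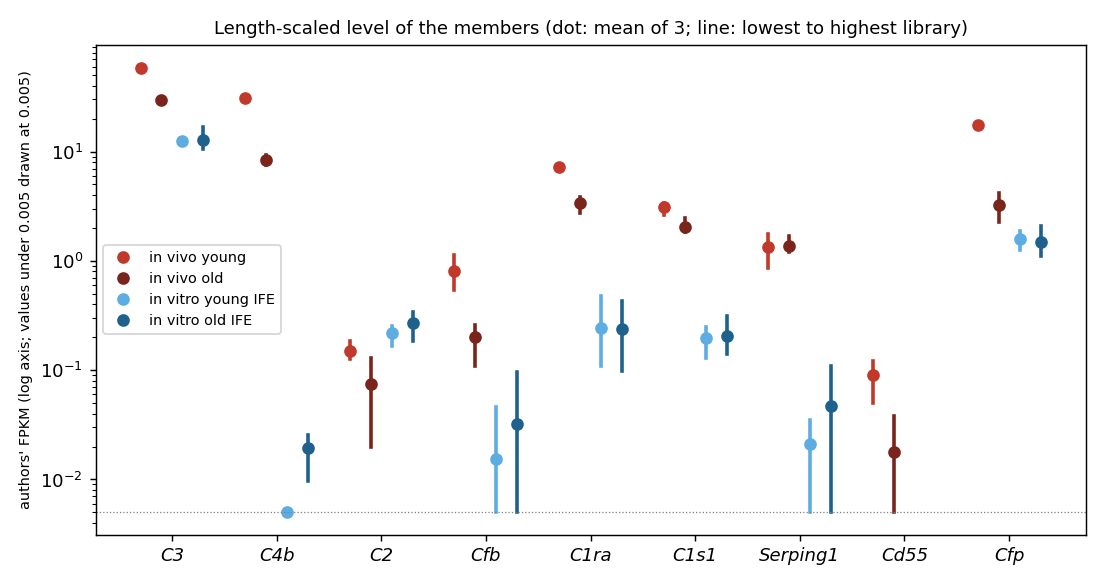
Length-scaled level of the members as the authors' FPKM (log axis, values under 0.005 drawn at 0.005) in the 4 groups, with the mean of 3 libraries as a dot and the lowest to highest library as a line. C3 leads in each group, C4b is second in the lung and at or near the lower edge in culture.

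Other genes of the cascade were taken from a list of 53, of which 39 had a row in the lung table and 26 were tested. Of these 26, 18 were lower in old, 2 higher and 6 not called, with a median log2 fold change of -1.38 beside 0.00 over all genes. Over all genes tested 20.4% were lower, 19.6% higher and 40.0% called. Of the 26, 4 (C1rb, C1s2, Masp2 and C6) passed the filter through the young libraries alone and 1 (C5ar2) through the old ones alone, and 15 of the other 21 were lower. Recognition molecules fell in 5 of 5 cases. C1qa, C1qb and C1qc, the chains of C1q, fell from 149.7 ± 0.525, 110.1 ± 2.97 and 114 ± 0.949 CPM to 15.9 ± 1.8, 9.58 ± 1.21 and 11.1 ± 1.64 CPM (SD, n = 3 each), and macrophages are their main source in tissue. None of these 3 genes was among the rows of the culture table used here. Receptors fell in 6 of 8 cases. C3ar1, the receptor of the C3a fragment, fell from 34.6 ± 0.506 to 2.21 ± 0.559 CPM, and C5ar1, that of C5a, from 25.9 ± 1.31 to 3.81 ± 0.3 CPM. Itgam and Itgax, integrin chains of receptors for cut C3, fell from 21.6 ± 2.57 and 30.9 ± 1.9 CPM to 3.63 ± 0.71 and 5.69 ± 0.183 CPM. Their shared partner Itgb2 fell from 244 ± 2.55 to 151 ± 7.23 CPM, and Cd93, a membrane glycoprotein of myeloid and endothelial cells once described as a C1q receptor, fell from 31.6 ± 0.315 to 7.57 ± 0.86 CPM. Itgam also stands on the macrophage list, all of whose tested markers fell in these libraries. With limma on log2(FPKM + 1) the log2 fold changes of C3ar1 and Itgam were -2.50 and -1.56, against -3.94 and -2.56 with edgeR, and both remained called.

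Of the soluble regulators, Clu, which encodes clusterin, an inhibitor of pore assembly, rose from 346 ± 14.1 to 617 ± 9.37 CPM (log2 fold change 0.83 ± 0.03, adjusted p = 3.86e-50, edgeR). In culture Clu stood at 58.3 ± 5.65 and 64.4 ± 7.3 CPM (adjusted p = 0.791, edgeR). Of the other proteases 4 of 5 tested fell, beside 20.4% of all genes tested. Of these 5, C1rb, C1s2 and Masp2 passed the filter on low counts through the young libraries alone. Masp1, a protease of the lectin route, fell from 75.4 ± 2.34 to 49.0 ± 0.955 CPM (log2 fold change -0.62 ± 0.06, adjusted p = 7.40e-17, edgeR). The near copy C4a was called lower with overlapping groups (log2 fold change -1.01 ± 0.25, adjusted p = 0.00131, edgeR), and over its alternatives the adjusted p reached 0.0634, with the call kept under 10 of 12 and lost with limma on either FPKM scale. C1s2 was not called (log2 fold change -0.95 ± 0.56, adjusted p = 0.179, edgeR). Cd55b and the read-through gene Gm20547 were not among the rows used here. The membrane regulators tested, Cr1l and Cd46, were not called: Cr1l, the rodent inhibitor Crry, stood at 40.8 ± 1.64 and 42.9 ± 2.57 CPM (adjusted p = 0.425, edgeR).

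**Figure D4:**
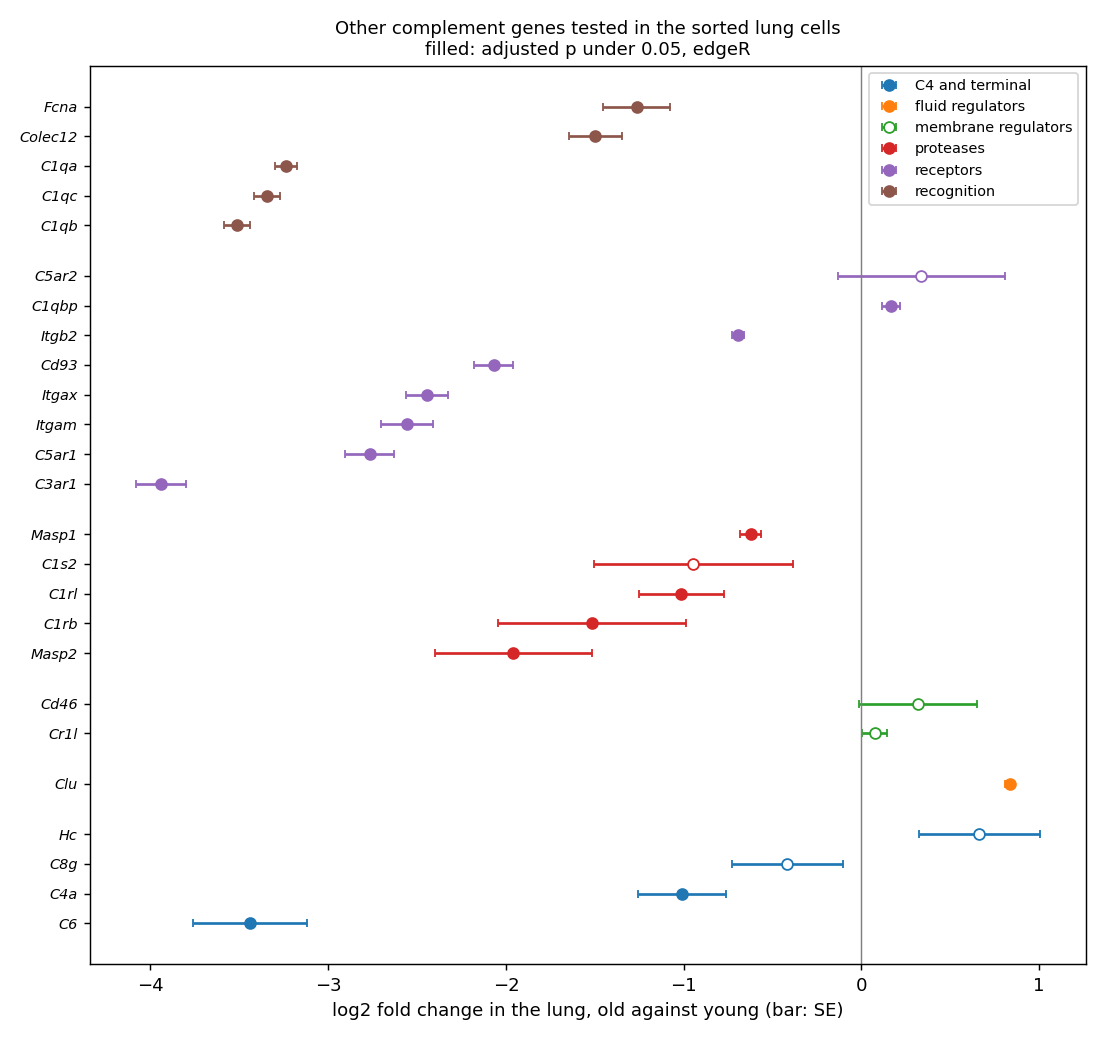
Log2 fold change of old against young in the sorted lung cells (x axis) for the other complement genes tested and reported here, grouped by role, with SE as bars and filled points for an adjusted p under 0.05. C3ar1 lies farthest to the left at -3.94, followed by the C1q chains and C6, and Clu lies at 0.83.

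In culture 26 of the 53 had a row and 8 were tested, of which 0 were called by edgeR or DESeq2 and 2, Itgb2 and C1qbp, had an unadjusted p under 0.05 (both named after their values were seen). Over all genes 0.0839% were called and 7.08% had an unadjusted p under 0.05. Without old IFE replicate 3 these 2 were called, in a fit where 183 of all 13371 genes tested were called, 84 higher and 99 lower. Itgb2 was then 0.50 ± 0.11 higher on the log2 scale with old IFE (adjusted p = 0.00852, edgeR). C1qbp, a mostly mitochondrial protein that binds C1q, was -0.16 ± 0.04 (adjusted p = 0.035, edgeR). With all libraries Itgb2 stood at 18.3 ± 1.25 with young and 24.5 ± 2.48 CPM with old IFE (adjusted p = 0.276, edgeR). Over the alternatives the adjusted p ran from 0.00852 to 0.975 for Itgb2 and from 0.035 to 0.975 for C1qbp.

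Position was not used to choose the members, and 5 of them lie in clusters. C4b, Cfb and C2 lie on chromosome 17 in the class III part of the major histocompatibility complex, with Stk19, Dxo, Skiv2l and Nelfe, housekeeping genes, between C4b and Cfb. In the lung the log2 fold changes of these neighbours were -0.02 ± 0.09 for Stk19, -0.06 ± 0.05 for Skiv2l and -0.09 ± 0.08 for Nelfe, none of them called. Dxo was called at -0.24 ± 0.10 (SE; adjusted p = 0.0499, edgeR), and Zbtb12, inside C2 on the other strand, at 0.10 ± 0.13 and not called. C4b and Cfb, at -1.89 and -1.96, thus lay outside the range of the neighbours tested other than C4a. On chromosome 6, C1ra, C1s1, C1rb and C1s2 follow one another with no other row between them, and their log2 fold changes ran from -1.52 to -0.58.

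**Figure D5:**
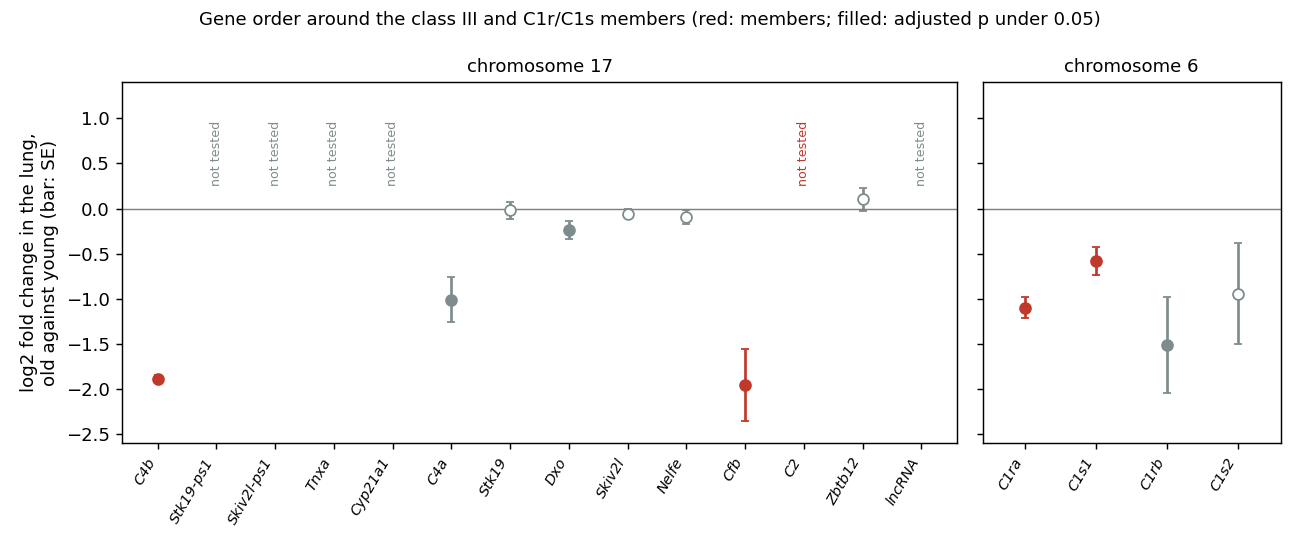
Log2 fold change in the lung of old against young (y axis, SE as bars) for rows in gene order from C4b to the end of C2 on chromosome 17 and from C1ra to C1s2 on chromosome 6 (members in red, filled for an adjusted p under 0.05). C4b and Cfb lie near -1.9 while Stk19, Dxo, Skiv2l, Nelfe and Zbtb12 lie between -0.24 and 0.10.

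Genes with the pattern most like each member were ranked by Pearson r of log2(CPM + 1) over the 12 libraries, among 9754 genes with 5 CPM or more on average in both settings. The libraries fall into 4 groups and share them between all genes, so high values are common and r is given as a description. For C3 the highest were Irgm2 (0.996), Parp3 (0.996), Noct (0.996), Atp2b1 (0.995) and Tap1 (0.994). For C4b it was B4galt5 (0.999), for C1ra Slfn9 (0.996), for C1s1 Plod2 (0.997) and for Cfp Hexa (0.986). For Cfb it was Pld1 (0.981), for Serping1 Mob3b (0.991) and for C2 Supt5 (0.945), members with few reads in at least 1 setting.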

How the data were processed

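Gene counts were measured in 12 libraries. The authors deposited raw counts per gene, normalized signal (counts divided by 1 size factor per library) and FPKM in separate tables for lung and culture. Per the submitters' processing notes, the tools were HISAT2 2.0.5, DESeq2 and featureCounts 1.5.0-p3. These notes name a human genome build, although rows are mouse genes. The in vivo count table used here held 5 of 6 libraries, so whole reads of young replicate 3 were recovered from the deposited signal (100% of its values whole within 0.001 reads). Each setting was fitted alone with edgeR 4.0.16 (R 4.3.3): default filter on low counts, TMM scaling (also of the CPM), robust quasi-likelihood test, group as the term, Benjamini-Hochberg adjustment. The interaction used genes in both tables. SE was taken from the fold change and the F statistic. The procedure was also run on simulated counts with planted changes, in which no library stood apart as old IFE replicate 3 does. Its outcome is not reported here. Alternatives were DESeq2 1.42.0, its size factors, no filter, leaving out each library, a replicate block, and limma 3.58.1 on log2(FPKM + 0.1) and log2(FPKM + 1). Replicate numbers do not pair the samples. Members and lists were chosen with earlier results of these data known. Named beyond the members are up to 12 other complement genes of lowest p in vivo, those called in vitro and the near copies. A gene of the wider list is counted in its totals but is not reported here.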

Additional observations from a re-analysis of the deposited data

Results flagged for a closer look

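The old against young difference itself differed between lung and culture for these genes, by an interaction test in edgeR over 12 libraries. Only called genes are listed here, and 17.5% of all 14318 genes in that fit were called. Among the members the in vivo minus in vitro difference (log2) was -0.98 for C3, -5.55 for C4b and -2.26 for Cfp, the C4b value being a fitted one on 5 reads in culture. The C3 call was lost with the replicate block (adjusted p = 0.0863, edgeR) and without young IFE replicate 3 (adjusted p = 0.0508, edgeR). Among the other complement genes it was -0.83 ± 0.18 for Masp1, -1.96 ± 0.40 for Masp2 and -1.13 ± 0.09 for Itgb2 (SE). It was 0.68 ± 0.10 for Clu and 0.29 ± 0.07 for C1qbp (SE), and the rest of that list in the fit were not called. The macrophage markers tested fell in the lung, and in culture they summed to 8.42 to 11.95 CPM, with Cd14 and Cd68 tested there and not called. Their part in these differences was not tested.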

How the results depend on the processing

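The 6 in vivo calls among members, the 0 in vitro and the count of 20 other complement genes called in vivo (19 to 20) held under each of the 12 alternatives run for them. The in vivo log2 fold change of Serping1 ran from -0.19 to 0.30 with 1 library left out. In vitro, that of C3 ran from -0.25 to 0.13, of C1s1 from -0.40 to 0.27 and of Cfp from -0.45 to 0.037 with 1 library left out. That of C3 was -0.025 with limma on log2(FPKM + 0.1), -0.021 with limma on log2(FPKM + 1) and -0.014 with the replicate block. The other complement genes called in vitro numbered 1 with no filter on low counts, where 70 of all 22035 genes were called. They numbered 0 to 2 with 1 library left out, the 2 without old IFE replicate 3, where 183 of 13371 genes were called. The interaction ran from -5.60 to 0.58 for Cfb and from -1.66 to 0.47 for Serping1 with 1 library left out. The cause of these reversals was not tested. Same-numbered samples did not deviate together (correlations of -0.001 to 0.005 in vivo and -0.035 to 0.045 in vitro). With the replicate block 6 in vivo and 0 in vitro members were called, and 2 rather than 3 in the interaction, where C3 had an adjusted p of 0.0863 (edgeR). Few reads limit C2, Cd55 and Cfb in the lung, and each member other than C3 and Cfp in culture.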

Other observations

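Of the genes outside the rule for naming, chosen after their values were seen, Masp2 and C6 stood out. Masp2, the protease of the lectin route that cuts C4 and C2, stood at 1.36, 1.97 and 2.52 CPM in young and 0.603, 0.417 and 0.488 CPM in old lungs (log2 fold change -1.96 ± 0.44, adjusted p = 0.000135, edgeR), called under each of its 12 alternatives and at -0.42 with limma on log2(FPKM + 1). It passed the filter on low counts through the young libraries alone, as 0 of the 3 old ones reached 0.722 CPM. In culture it was higher than in the lung, at 9.88 ± 1.13 CPM with young and 9.89 ± 1.02 CPM with old IFE (SD, n = 3 each), with no test across the tables. C6, a subunit of the membrane pore, stood at 11.0, 5.85 and 5.56 CPM in young and 0.259, 0.974 and 0.733 CPM in old lungs (log2 fold change -3.44 ± 0.32, adjusted p = 1.61e-12, edgeR), and at -1.28 with limma on log2(FPKM + 1). It too passed through the young libraries alone, with 2 of the 3 old ones at that level. The macrophage markers fell in the same lung libraries, and their part in these values was not tested.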
